A study of Mus musculus with 4 samples.

Results

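Genes of the sarcomere, the contractile unit of striated muscle, were followed through the onset of cardiac differentiation in the mouse embryo. They are 10 genes chosen by name: the myosin light chains *Myl7* and *Myl4*, the myosin heavy chains *Myh6* and *Myh7*, the troponins *Tnnt2*, *Tnni1* and *Tnnc1*, the actins *Actc1* and *Acta2*, and titin, *Ttn*. Of these 10 genes, 9 were listed in at least 1 of the 3 stage libraries, which together list 19616 genes. *Ttn* was listed in none of the 3 and has no value here.

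In a sarcomere, thick filaments of myosin pull on thin filaments of actin, and the troponins on the thin filament make this pull depend on calcium. Titin spans each unit as an elastic filament. In the mouse, heart muscle forms from mesoderm that leaves the primitive streak, moves to the front of the embryo and lays down the cardiac crescent, where the first contractile genes are switched on shortly before the heart beats.

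The study asked where and when the precursors of the heart's parts leave the primitive streak, and its single-cell libraries sample whole embryos of 3 stages. All embryos had the genotype TnEGP-CreERT2/+; R26Rtdtomato/R26Rtdtomato, in which the *T* locus drives a nuclear green fluorescent protein and a Cre that tamoxifen activates, so the Cre is made in cells that express *T*. Tamoxifen was given to every group by oral gavage at 0.08 mg/bw. Embryos of a stage were pooled, cells were not assigned to embryos, and no library analysed here lacked tamoxifen or the driver. The MS-LS group (mid-streak to late-streak) was collected at E6+21h after tamoxifen at E6+5h, the OB-EB group (no bud to early bud) at E7+3h after tamoxifen at E6+21h, and the EHF group (early head fold) at E7+14h after tamoxifen at E7+7h. Stage and tamoxifen time change together and cannot be told apart.

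The MS-LS library held 3635 cells, 16639 genes and 17966956 UMIs (unique molecular identifiers, each standing for 1 captured transcript), with a median of 4251 UMIs per cell. The OB-EB library held 3994 cells, 16341 genes and 12181436 UMIs, with a median of 2620.5. The EHF library held 3494 cells, 18640 genes and 20376539 UMIs, with a median of 5584, so the middle stage was the shallowest. A pair of tables was deposited for EHF. Their counts differed at 0 of 65128160 places, so they were counted as 1 library. They named 21 genes differently. The MS-LS and OB-EB libraries shared 18 cell barcodes, MS-LS and EHF shared 12, and OB-EB and EHF shared 14. With 1 library per stage no difference between stages has a replicate check. Levels are UMIs in a library or cell group, scaled to CPM (UMIs of a gene per 1000000 UMIs of all genes), and are not divided by transcript length because each 3′ end is counted once. Their 95% intervals, exact Poisson for levels and Clopper-Pearson for shares of cells, cover counting error only. A gene was called detected with more than 3 UMIs in a library, and 3 UMIs are 0.167 CPM in MS-LS, 0.246 in OB-EB and 0.147 in EHF.

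*Myl7* stood far above every other member at all 3 stages, and its course differed from theirs. *Myl7*, the regulatory light chain of atrial myosin, was at 86.2 CPM in MS-LS (1548 UMIs, interval 81.9 to 90.6), 191 in OB-EB (2324 UMIs, 183 to 199) and 65.0 in EHF (1325 UMIs, 61.6 to 68.6). It was thus highest at the middle stage, with intervals apart at each step. *Myl4*, the essential light chain of atrial myosin, was at 0.668 CPM in MS-LS (0.345 to 1.17), 1.40 in OB-EB (0.813 to 2.23) and 5.59 in EHF (4.61 to 6.72). Only its EHF interval lay apart from those of the other stages.

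The 3 troponins differed in their earliest counts. *Tnnt2*, which ties the troponin complex to tropomyosin, had 3 UMIs in MS-LS (0.167 CPM, at the limit of detection), 11 in OB-EB (0.903 CPM, 0.451 to 1.62) and 163 in EHF (8.0 CPM, 6.82 to 9.33). *Tnni1*, the inhibitory subunit found in slow skeletal and embryonic heart muscle, had 23, 31 and 275 UMIs, or 1.28 (0.811 to 1.92), 2.54 (1.73 to 3.61) and 13.5 CPM (11.9 to 15.2). *Tnnc1*, the calcium-binding subunit of heart and slow muscle, had 45 UMIs in MS-LS (2.50 CPM, 1.83 to 3.35), 14 in OB-EB (1.15 CPM, 0.628 to 1.93) and 99 in EHF (4.86 CPM, 3.95 to 5.92). *Tnnt2* was therefore the scarcest of the 3 in MS-LS, in OB-EB it was as low as *Tnnc1* within counting error, and *Tnnc1* had its lowest level at the middle stage.

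The actins were low until EHF. *Actc1*, the cardiac actin, was at 1.84 CPM in MS-LS (33 UMIs, 1.26 to 2.58), 1.15 in OB-EB (14 UMIs, 0.628 to 1.93) and 7.02 in EHF (143 UMIs, 5.91 to 8.27). *Acta2*, the smooth muscle actin that embryonic heart muscle also makes for a time, was at 0.612 (11 UMIs, 0.306 to 1.10), 0.410 (5 UMIs, 0.133 to 0.958) and 13.3 CPM (272 UMIs, 11.8 to 15.03). Both actins had overlapping intervals in the 2 earlier libraries and lay apart from them in EHF. The coding parts of these genes are nearly the same, so the split between them rests on their 3′ ends, which was not tested here.

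The myosin heavy chains were the last to be listed. *Myh6* had 6 UMIs in EHF (0.294 CPM, 0.108 to 0.641) and *Myh7* had 5 (0.245 CPM, 0.0797 to 0.573), and neither was listed in MS-LS or OB-EB. They are close copies of each other, which adds to the uncertainty of counts this small. In all, 6 members passed 3 UMIs in MS-LS, 7 in OB-EB and 9 in EHF, and with at least 10 UMIs the numbers were 6, 6 and 7. The libraries differ in depth, with EHF the deepest, and in the genes they list (16639, 16341 and 18640). The share of all genes past these limits is not given here, so the numbers set no order of onset.

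**Figure D1:**
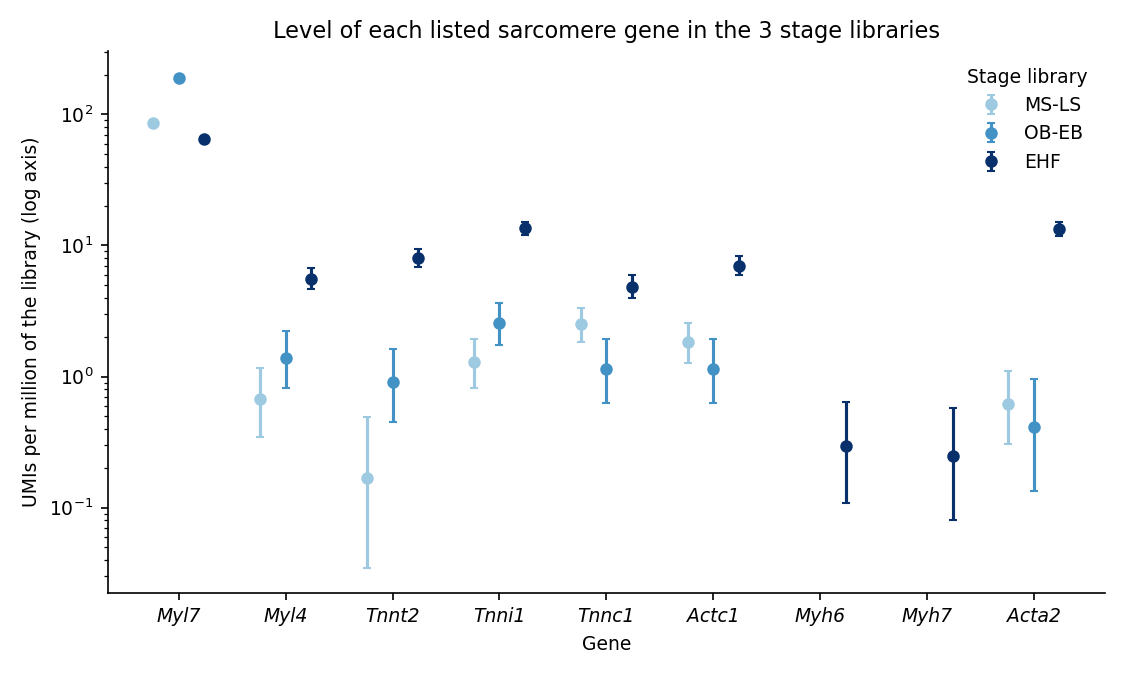
Level of the 9 listed members in each stage library, in CPM on a log axis, as points with exact Poisson 95% intervals (counting error only, 1 library per stage). *Myl7* peaks in OB-EB at 191, whereas the other 6 members found at every stage are highest in EHF, between 4.86 and 13.5.

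By level, *Myl7* was followed in MS-LS by *Tnnc1*, *Actc1*, *Tnni1*, *Myl4*, *Acta2* and *Tnnt2*, with overlapping intervals between each pair of neighbours after *Myl7*. In OB-EB the order was *Myl7*, *Tnni1*, *Myl4*, *Tnnc1* with *Actc1*, *Tnnt2* and *Acta2*, again with every neighbour after *Myl7* overlapping. In EHF, *Tnni1* and *Acta2* came after *Myl7* and overlapped, then came *Tnnt2*, *Actc1*, *Myl4* and *Tnnc1*, each overlapping the next, and *Myh6* and *Myh7* came last and overlapped. The UMIs of all members together amounted to 93.2 CPM in MS-LS (88.8 to 97.8), 198 in OB-EB (191 to 206) and 118 in EHF (113 to 123). *Myl7* made up 92.4% of them in MS-LS, 96.2% in OB-EB and 55.2% in EHF. Without *Myl7* the members summed to 7.07 CPM in MS-LS (5.89 to 8.41), 7.55 in OB-EB (6.09 to 9.26) and 52.9 in EHF (49.7 to 56.1), so the summed level of the rest was flat over the first step and higher in EHF.

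As ratios between stages, a gene was counted as higher or lower when its CPM differed by at least 2-fold and it had at least 20 UMIs over both libraries. Between MS-LS and OB-EB, 5 members met this minimum. *Myl7* and *Myl4* were higher in OB-EB, so 2 of 5, beside 964 of 13283 genes (7.26%), and *Tnnc1* was lower, 1 of 5 beside 634 genes (4.77%). The log2 ratio was 1.15 for *Myl7* (1.05 to 1.24), 1.06 for *Myl4* (−0.09 to 2.26) and −1.12 for *Tnnc1* (−2.10 to −0.23). *Myl4*'s interval reached 0 and the gene was no longer counted with a minimum of 50 UMIs, which left *Myl7* alone. *Tnni1* came close to the fold with 0.99 (0.17 to 1.84), and *Actc1* had −0.68 (−1.69 to 0.26). *Tnnt2*, under the minimum of UMIs, had 2.44 (0.51 to 4.92), and *Acta2*, also under it, had −0.58 (−2.45 to 1.07).

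Between OB-EB and EHF the picture changed. Of 7 members tested, 6 were higher in EHF, beside 2943 of 14471 genes (20.3%), and 1, *Myl7*, was lower, beside 1015 genes (7.01%). The median log2 ratio was 2.41 over the members and 0.39 over all genes tested. *Acta2* had the largest ratio of the 6, 5.02 (3.78 to 6.66), or 32.5-fold, resting on 5 UMIs in OB-EB and with an interval that overlaps that of *Tnnt2*. *Tnnt2* followed with 3.15 (2.27 to 4.18) and *Actc1* with 2.61 (1.82 to 3.52). *Tnni1* had 2.41 (1.87 to 2.99), *Tnnc1* 2.08 (1.27 to 3.00) and *Myl4* 2.0 (1.26 to 2.83), and these last 5 intervals overlapped each other. *Myl7* fell by 1.55 on the log2 scale (−1.65 to −1.45). No ratio is given for *Myh6* and *Myh7*, which were not listed in OB-EB and whose EHF counts are too small to set a difference apart from counting error.

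Other muscle genes, a list of 51 that holds no member, were counted in the same way. MS-LS and OB-EB listed 27 of them each and EHF 33. From MS-LS to OB-EB, 2 of 18 tested were higher, *Myl2* and *Nexn*, beside 7.26% of all genes, and 1 was lower, *Nppb*, beside 4.77%. *Myl2*, the ventricular regulatory light chain, went from 3 to 17 UMIs (log2 ratio 3.06, 1.27 to 5.48). From OB-EB to EHF, 11 of 20 tested were higher, beside 20.3% of all genes, and 0 lower, beside 7.01%. The median log2 ratio over those tested was 1.33. The higher ones included the small heat-shock protein gene *Cryab* (3.93), the smooth muscle gene *Tagln* (1.79), *Myl2* (1.71) and *Tpm2* (1.56), a tropomyosin. Of the abundant genes of the list, *Tpm4* and *Atp2a2* had −0.05 and 0.26, and *Tpm1* and *Cald1* had 0.61 and 0.86.

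Factors that act upstream of heart muscle genes, a list of 13 transcription factors and the chromatin remodelling subunit *Smarcd3*, were measured beside the members. From MS-LS to OB-EB, 5 of 10 tested were higher and 0 lower, beside 7.26% and 4.77% of all genes, and from OB-EB to EHF, 6 of 13 were higher and 1 lower, beside 20.3% and 7.01%. *Mef2c* had log2 ratios of 1.98 and 1.51 at the 2 steps. *Nkx2-5*, an early cardiac homeobox gene, went from 3 UMIs in OB-EB to 77 in EHF (log2 ratio 3.94, 2.34 to 6.25), and *Tbx5* from none listed to 22. *Mesp1*, the mark of mesoderm that has just left the streak, was at 63.1 CPM in MS-LS, 116 in OB-EB and 22.7 in EHF, and like *Myl7* was highest at the middle stage. The makeup of the pooled embryos changes between stages, and its part in these ratios was not tested.

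The share of cells with a UMI of *Myl7* was 17.1% in MS-LS, 24.1% in OB-EB and 16.5% in EHF. After each cell was thinned to 2000 UMIs, with 3404 of 3635, 2939 of 3994 and 3185 of 3494 cells deep enough to enter, it was 9.90% (8.92 to 11.0), 20.3% (18.9 to 21.8) and 8.60% (7.65 to 9.63). Extra-embryonic (Exe) ectoderm-like cells, which lie outside the lineages of the heart, were taken as the comparison for free RNA. That their counts are free RNA was not tested, and for some muscle genes they are not background, since in EHF they held 57.6% of the *Tnnt1* UMIs. Their *Myl7* share was 5.21% in MS-LS, 7.35% in OB-EB and 3.30% in EHF at median depths of 4837, 3035 and 6933 UMIs, and 1.54%, 5.24% and 1.02% after thinning. The share over all cells thus lay above theirs at each stage. For the other members the thinned share was at most 0.499% in MS-LS and 0.408% in OB-EB. In EHF it was 2.79% for *Tnni1*, 1.82% for *Acta2*, 1.13% each for *Tnnt2* and *Actc1*, 0.879% for *Tnnc1* and 0.785% for *Myl4*, beside 0.205% or less in Exe ectoderm-like cells.

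The 10 genes lie on 5 chromosomes of GRCm38. *Myl7* (ENSMUSG00000020469) is on the minus strand of chromosome 11 (5896637 to 5898782), *Actc1* (ENSMUSG00000068614) on the minus strand of chromosome 2 (114047282 to 114053548) and *Acta2* (ENSMUSG00000035783) on the minus strand of chromosome 19 (34241090 to 34255590). *Tnni1* (ENSMUSG00000026418, 135779434 to 135810989) and *Tnnt2* (ENSMUSG00000026414, 135836354 to 135852260) are neighbours on the plus strand of chromosome 1 with 25364 bases between them. *Myh6* (54941921 to 54966927) and *Myh7* (54970684 to 54994626) lie 3756 bases apart on the minus strand of chromosome 14. Promoter sequences of all 10 members were found in the RefSeq set of GRCm38.p6, and the 250 bases before each start were searched on both strands for 3 motifs, none of which overlapped another in the promoters shown. The RefSeq start used lies 19987 bases from the GENCODE start for *Tnni1*, 673 for *Actc1*, 320 for *Myh6*, 217 for *Acta2* and 20 for *Tnnt2*, so the counts hold for those starts only. The CArG box, the site type of serum response factor, was in 2 of 10 members, *Myl7* and *Actc1*, beside 1.47% of 32851 promoters. GATAA, a core of sites for GATA factors, was in 3 of 10, *Myl7*, *Tnnt2* and *Acta2*, beside 22.6%. AAGTG, a core of sites for *Nkx2-5*, was in 4 of 10, *Myl7*, *Myl4*, *Myh6* and *Myh7*, beside 40.7%. A match is a string of letters and not a site shown to be used.

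The promoters shown are those of *Myl7* (chr11:5898783-5899032, minus strand, upstream of the gene), *Tnnt2* (chr1:135836084-135836333, plus strand, upstream of the gene) and *Actc1* (chr2:114052888-114053125, minus strand, within an intron of a longer annotated transcript, shown up to the first annotated exon, 238 of the 250 bases). They are shown because their places in EHF embryos differ. *Myl7* was highest in the cardiac class, a cluster with first heart field markers that is given below. *Tnnt2* was high there and in mesenchyme-like cells, and *Actc1* was highest outside that class. Capitals mark the motif matches on either strand. In *Myl7* the CArG box starts 61 bases before the start, GATAA 41 and the reverse complement of AAGTG 168. In *Tnnt2* the reverse complement of GATAA starts 245 and 166 bases before the start, and in *Actc1* the CArG box is 47 bases before it.
Myl7: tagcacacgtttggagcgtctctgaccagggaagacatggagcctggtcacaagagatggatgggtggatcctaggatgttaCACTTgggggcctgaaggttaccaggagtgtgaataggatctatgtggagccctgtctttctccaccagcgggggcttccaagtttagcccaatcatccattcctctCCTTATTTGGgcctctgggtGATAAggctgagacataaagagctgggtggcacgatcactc
Tnnt2: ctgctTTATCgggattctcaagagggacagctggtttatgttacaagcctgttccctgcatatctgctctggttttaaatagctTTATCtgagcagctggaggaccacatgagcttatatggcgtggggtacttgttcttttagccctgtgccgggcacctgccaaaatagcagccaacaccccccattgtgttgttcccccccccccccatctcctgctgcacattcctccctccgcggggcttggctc
Actc1: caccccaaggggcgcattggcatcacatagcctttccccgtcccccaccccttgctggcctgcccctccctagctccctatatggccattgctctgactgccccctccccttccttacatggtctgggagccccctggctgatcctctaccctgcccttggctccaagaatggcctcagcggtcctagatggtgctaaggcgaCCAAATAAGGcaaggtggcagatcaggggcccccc
*Myl7* and *Actc1*, which share the CArG box, had their highest levels in different EHF clusters, given with the clusters.

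To place the members in cell types, the cells of each library were clustered with the members and the 51 muscle genes held out, so that no member shaped or named a cluster. A cluster was called "X-like" only with at least 3 detected markers of a fixed list. In MS-LS, the *Myl7* level was highest in nascent mesoderm-like cells. These cells (clusters 7 and 15, 346 cells, 9.52% of the library) held 49.3% of the *Myl7* UMIs, at 418 CPM (389 to 449). Their 2 clusters, at 442 and 396 CPM, had overlapping intervals, and mesenchyme-like cluster 5, led by *Foxf1*, *Phlda2* and *Pmp22*, came next with 298 CPM (267 to 332). Primitive streak-like cells were at 58.6 CPM (47.0 to 72.1), epiblast-like cells at 39.4 (33.1 to 46.7) and Exe ectoderm-like cells at 10.1 (6.87 to 14.4).

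The other members of MS-LS had 45 UMIs or fewer each. *Tnnc1* had 41 of its 45 UMIs (91.1%) in Exe endoderm-like cells (clusters 1, 6 and 14), which were 18.6% of the cells, at 12.1 CPM (8.71 to 16.5). Exe endoderm-like cells form the visceral yolk sac lining, outside the embryo proper. *Tnni1* had 10 of its 23 UMIs in the same cells and 7 in mesenchyme-like cluster 5. *Actc1* had 13 of 33 UMIs in nascent mesoderm-like cells and 6 in cluster 5. Of the 3 *Tnnt2* UMIs, 2 were in primitive streak-like and 1 in Exe ectoderm-like cells, which is no sign of a cell type.

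In OB-EB the 4 highest *Myl7* clusters had intervals apart from each other, and each had *Mesp1* or *Hand1* among its leading genes. Unnamed clusters 2 and 3, with *Mesp1* among their leading genes, were at 623 (575 to 674) and 487 CPM (440 to 539). Nascent mesoderm-like cluster 4 was at 378 (348 to 409), and unnamed cluster 6, led by *Hand1*, *Foxf1*, *Pmp22* and *Tbx20*, at 268 (237 to 302). Together clusters 2, 3, 4 and 6 were followed by shallow cluster 9 (median 1430 UMIs per cell) with 201 CPM, and epiblast-like and Exe ectoderm-like cells had 57.5 and 21.4. The nascent mesoderm-like class did not differ from that of MS-LS beyond counting error, 378 against 418 CPM. With clusters 2 and 3 counted in, a choice made after seeing the data, it was at 477 CPM (453 to 501), apart from the interval of MS-LS, so whether the stages differ depends on that choice.

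OB-EB cluster 6 was where *Tnnt2* was first found above its limit of detection. It held 10 of the 11 *Tnnt2* UMIs, at 10.1 CPM (4.84 to 18.5), in 292 cells that were 7.31% of the library. Nascent mesoderm-like cluster 4, the deeper one, had 0 *Tnnt2* UMIs, which allows up to 2.36 CPM by the exact interval. Cluster 6 also held 9 of 31 *Tnni1* UMIs (9.07 CPM), as many as cluster 2 (9.03 CPM), and 4 of 17 of *Myl4* (4.03 CPM). Cluster 4 held 5 of the *Myl4* UMIs (3.20 CPM), and the *Myl4* intervals of the clusters overlapped. Of the upstream factors cluster 6 had *Hand1* at 337 CPM, *Tbx20* at 117, *Mesp1* at 115, *Gata6* at 71.6, *Smarcd3* at 24.2 and *Mef2c* at 18.1. *Hand1* and *Tbx20* were among the genes that define it. *Actc1* had a different place, with 8 of 14 UMIs in cluster 4 and 2 in cluster 6. *Tnnc1* had 8 of 14 UMIs in Exe endoderm-like cells, and the others lay in 5 clusters. These cells were 18.6% of MS-LS cells and 8.26% of OB-EB cells, and the part of that difference in the lower *Tnnc1* level of OB-EB was not tested. Within them *Tnnc1* was at 12.1 CPM (8.71 to 16.5) in MS-LS and 6.59 (2.85 to 13.0) in OB-EB cluster 5, intervals that overlap.

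**Figure D2:**
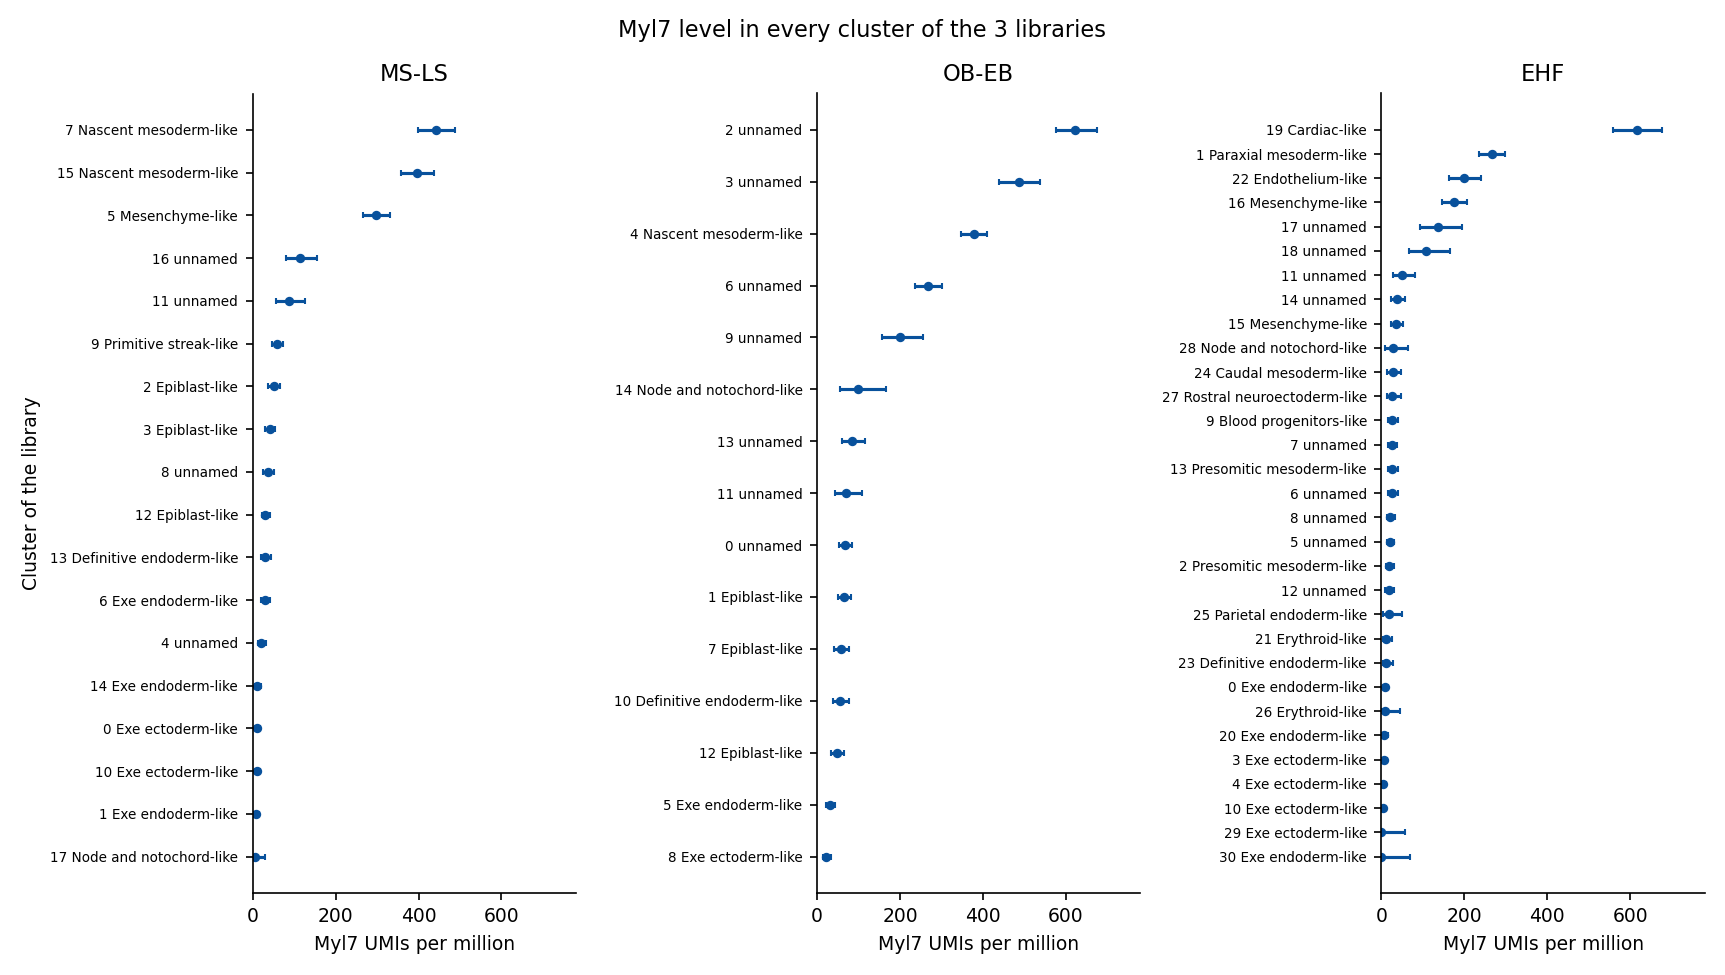
*Myl7* level in CPM in every cluster of the 3 libraries, as points with exact Poisson 95% intervals, clusters ordered by level within each library. The highest clusters are nascent mesoderm-like in MS-LS (442), unnamed with *Mesp1* among the leading genes in OB-EB (623) and cardiac in EHF (616).

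In EHF, 1 cluster of 98 cells (cluster 19, 2.80% of the library, median 6464 UMIs per cell) had 7 of 8 markers of the first heart field, the lineage that forms the early crescent, and is called the cardiac class. The paper also places heart progenitors in an anterior and a posterior second heart field, the latter from its paraxial mesoderm cluster. No EHF class here was named for these fields, so such cells would be counted outside the cardiac class. The leading genes of the cardiac class were *Mef2c*, *Rgs5*, *Sfrp5*, *Nkx2-5*, *Smarcd3*, *Cdkn1c*, *AV026068*, *Meis1*, *Gata6* and *Rbm24*. *Myl7* was at 616 CPM there (559 to 677), and these cells held 32.6% of the library's *Myl7* UMIs. *Myl4*, *Tnni1* and *Tnnt2* came next with overlapping intervals, at 77.0 CPM (57.8 to 100.5), 75.6 (56.6 to 98.8) and 68.4 (50.5 to 90.7). *Acta2* at 22.8 (13.0 to 37.0), *Tnnc1* at 17.1 (8.84 to 29.9) and *Actc1* at 9.98 (4.01 to 20.6) were lower than those 4, and overlapped each other. *Myh6* and *Myh7* had 0 UMIs in the cardiac class, where 3 UMIs would be 4.28 CPM, so neither was detectable at this depth. The class thus carried light chains and troponins where heavy chains were not detectable.

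Against all other EHF cells, 5 of 7 members tested were higher in the cardiac class, beside 803 of 13456 genes (5.97%), and 0 were lower, beside 1358 genes (10.1%). *Myl4* had a log2 ratio of 4.66 (4.10 to 5.21), with 47.4% of its UMIs in these cells. *Myl7* had 3.76 (3.59 to 3.93), *Tnnt2* 3.55 (3.03 to 4.05), *Tnni1* 2.74 (2.28 to 3.18) and *Tnnc1* 1.95 (0.95 to 2.83). *Acta2* and *Actc1*, with 0.81 (−0.02 to 1.54) and 0.53 (−0.81 to 1.61), had intervals that include 0, and only 5.88% and 4.90% of their UMIs lay in the class. Among the 13456 genes ordered by ratio, *Myl4* was number 7, *Myl7* 12, *Tnnt2* 20, *Tnni1* 55 and *Tnnc1* 162, and *Acta2* and *Actc1* were 1132 and 1926. The top 5 were *Sfrp5*, *Tbx5*, *Nkx2-5*, *Mef2c* and *Gata5*, with log2 ratios from 5.94 to 5.02, of which all but *Sfrp5* were on the marker list of the class.

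Another clustering, by the Leiden method, gave a cardiac class of 103 cells, 77 of them shared. There the ratio of *Tnnc1* was 0.68 (−0.98 to 1.95) and that of *Acta2* −0.56 (−2.02 to 0.58), so *Tnnc1*'s place among the higher genes depends on where the class ends. *Myl4* had 4.02 and *Myl7* 3.41. When muscle genes were allowed to shape the clusters, *Tnnt2* had 4.14 in place of 3.55.

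**Figure D3:**
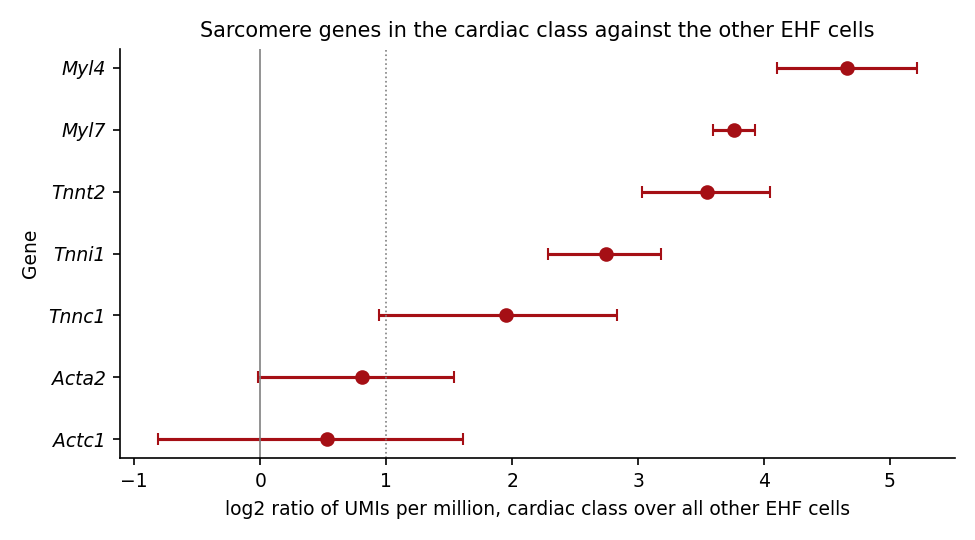
Log2 ratio of CPM in the EHF cardiac class (98 cells) over all other EHF cells (3396) for the 7 members tested, with exact 95% intervals of the ratio of 2 Poisson sums. The solid line marks 0 and the dotted line a 2-fold ratio; *Acta2* and *Actc1* reach 0, and the other 5 members do not.

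The muscle list was compared in the same way. Of 19 tested, 5 were higher in the cardiac class, beside 5.97% of all genes, and 1 lower, beside 10.1%. The median log2 ratio was 0.28. The higher ones were *Nebl* (3.40), *Tnnt3* (2.65), *Actg2* (2.23, interval from −0.18), *Nexn* (1.57) and *Cryab* (1.03), on between 3 and 19 UMIs each. The Z-disc gene *Csrp3* had 10 of its 16 UMIs in the class but fell under the minimum of UMIs. *Tnnt1*, the slow skeletal troponin T gene, was lower (−2.06), and *Myl2* (−0.10) and *Tagln* (−0.05) were near 0. *Myl3*, *Tnni3* and *Actn2* had 0 UMIs there. Of the upstream list, 10 of 13 tested were higher, beside 5.97% of all genes, and 1, *Mesp1*, was lower (−1.70), beside 10.1%. However, 8 of these 14 factors were on the marker list that named the class, so their counts describe it only.

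Another cluster held more of the *Tnnt2* and *Acta2* UMIs than the cardiac class did. Mesenchyme-like cluster 16 (106 cells, 3.03% of the library, median 6125.5 UMIs, led by *Pmp22*, *Stard8*, *Mest* and *Ahnak*) held 59.6% of the *Acta2* UMIs, at 199 CPM (170 to 232). It held 42.3% of the *Tnnt2* UMIs, at 84.8 CPM (66.0 to 107), an interval that overlaps that of the cardiac class. *Myl7* was at 174 CPM (147 to 206), *Tnni1* at 41.8 (28.9 to 58.4), *Actc1* at 36.9 (24.9 to 52.6), *Tnnc1* at 17.2 (9.41 to 28.9) and *Myl4* at 16.0 (8.51 to 27.3). Next to the cardiac class, this cluster thus had more *Acta2* and *Actc1*, less *Myl7* and *Myl4*, and levels of *Tnnt2*, *Tnni1* and *Tnnc1* whose intervals overlapped.

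Other muscle genes and upstream factors set cluster 16 apart as well. Of the muscle list, genes picked after their values were seen include *Tagln* at 111 CPM against 7.13 in the cardiac class, *Cald1* at 388 against 144 and *Tpm1* at 654 against 346. Not all of the list ran that way. *Csrp3* was at 1.23 against 14.3 CPM and *Tnnt3* at 22.1 against 24.2, with overlapping intervals for both. *Hand1* was at 537 against 72.7 CPM, whereas *Nkx2-5* was at 2.46 against 69.9, *Mef2c* at 19.7 against 254 and *Isl1* at 1.23 against 65.6. *Hand2* was at 51.6 and 52.8 CPM, with no difference beyond counting error. The cardiac marker *Tbx20* ran the other way, at 101 against 62.7 CPM. *Gata5*, also a cardiac marker, was at 22.1 against 42.8 CPM, and the intervals of both genes overlapped. *Hand1* was a marker of the mesenchyme list and the others named here as low were cardiac or pharyngeal markers, so this is a description of the clusters.

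Unnamed cluster 17 (104 cells, median 1875.5 UMIs) also carried most members. It is shallow, and its leading genes included *Spin2c*, *Hand1* and *Msx1*. *Myl7* was at 137 CPM (92.2 to 195), under the cardiac class, and *Acta2* at 68.3 (38.2 to 113), under cluster 16. Next came *Tnnt2* at 59.2 (31.5 to 101), *Tnni1* at 50.1, *Tnnc1* at 41.0 and *Myl4* at 36.4. *Acta2* and *Myl7* were the members whose highest EHF cluster had an interval apart from the next one, cluster 16 before 17 for *Acta2* and the cardiac class before paraxial mesoderm-like cluster 1 for *Myl7*.

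*Myl7* reached further mesoderm in EHF. Paraxial mesoderm-like cluster 1 (187 cells, led by *Tcf15*, *Ppp1r1a* and *Alx1*) was at 266 CPM (236 to 298) and held 22.1% of the *Myl7* UMIs, and endothelium-like cluster 22 (86 cells) was at 199 (163 to 240). After thinning to 3500 UMIs, 64.9% of cardiac cells had a *Myl7* UMI (61 of 94), 53.0% of paraxial mesoderm-like cells (89 of 168), 33.8% of endothelium-like cells (26 of 77) and 1.74% of Exe ectoderm-like cells (8 of 461). Unthinned, the cardiac share was 84.7%. Presomitic mesoderm-like cells were at 21.3 CPM (14.8 to 29.6), erythroid-like cells at 11.1 (4.48 to 23.0) and Exe ectoderm-like cells at 4.78 (2.79 to 7.66). *Tnnt2* had 0 or 1 UMI-positive cell among thinned paraxial, presomitic and Exe ectoderm-like cells, but 18.1% of cardiac (17 of 94) and 16.2% of mesenchyme-like cells (32 of 198). The latter are clusters 15 and 16, which had *Tnnt2* at 10.7 (4.64 to 21.2) and 84.8 CPM.

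*Actc1*, in contrast, was highest outside the cardiac class. After cluster 16, paraxial mesoderm-like cluster 1 had 26.3 CPM (17.6 to 37.8), unnamed cluster 18 had 25.7 (5 UMIs) and presomitic mesoderm-like cluster 2 had 23.5 (14.9 to 35.3), all overlapping. *Tnni1* was broad, with 51.4 CPM in unnamed cluster 18 (10 UMIs, 24.7 to 94.6), 34.4 and 31.7 in presomitic mesoderm-like clusters 13 and 2, 23.6 in paraxial mesoderm-like cells and 23.9 in erythroid-like cluster 21. *Tnnc1* again had a site outside the embryo proper, since Exe endoderm-like cells (clusters 0, 20 and 30) held 38.4% of its UMIs at 17.0 CPM (12.0 to 23.3), the same level as the cardiac class within counting error. Of the scarce heavy chains, *Myh7* had 4 of 5 UMIs in definitive endoderm-like cluster 23, and *Myh6* had 5 of 6 in Exe ectoderm-like cells, and neither had a UMI in the cardiac class or in cluster 16.

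**Figure D4:**
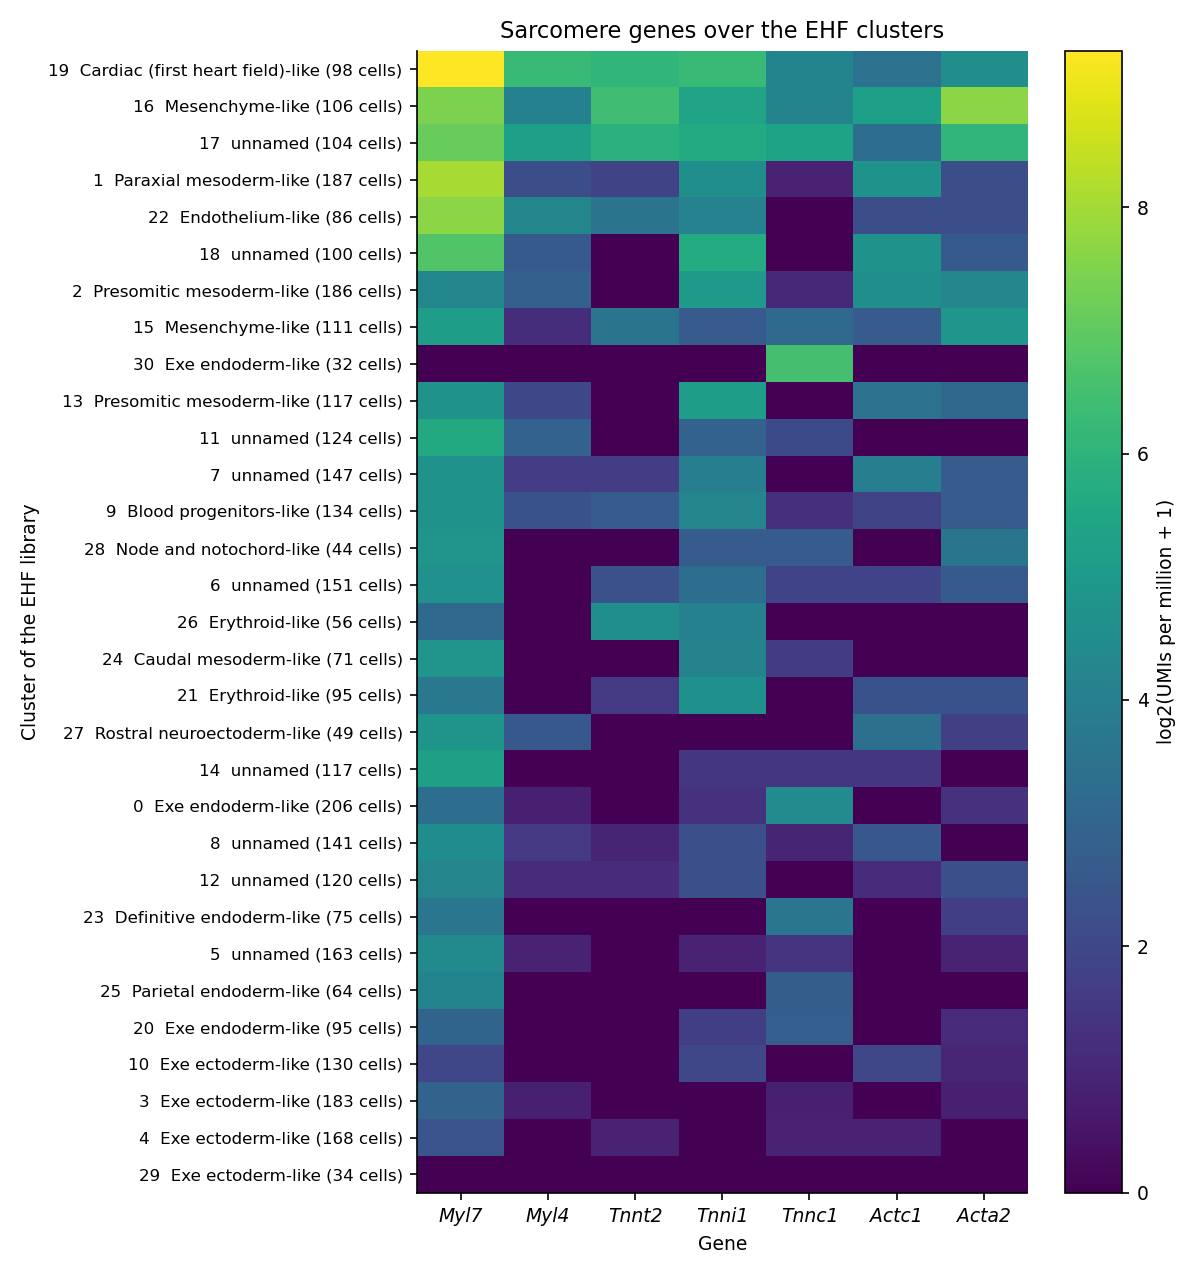
Level of 7 members in the 31 clusters of the EHF library, colour showing log2(CPM + 1), clusters ordered by the members' levels with cell numbers beside them. Clusters 19, 16 and 17 carry most members, *Acta2* is brightest in cluster 16 at 199 CPM, and *Tnnc1* has a site of its own in Exe endoderm-like clusters; cluster 30 there rests on 5 UMIs.

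Genes with the most similar pattern were ranked by the Pearson correlation of log2(CPM + 10) over the 31 EHF clusters, among 9449 genes with at least 100 UMIs. These clusters share 1 library and differ in depth, so the values are descriptions. For *Myl7* the closest were *Myl4* (0.81), *Asb4* (0.81), *Mef2c* (0.79), *Hsd11b2* (0.77) and *Rgs5* (0.77). For *Tnnt2* they were *Rgs5* (0.82), *Acta2* (0.79), *Myl4* (0.78), *Hand2* (0.78) and *Tagln* (0.77). *Acta2* was closest to *Tagln* (0.90), *Pmp22* (0.83), *Snai2* (0.82), *Frmd6* (0.82) and *Tnnt2* (0.79). The 3 genes closest to *Actc1* held no member: *Ndufa4l2* (0.79), *Prrx2* (0.77) and *Crabp1* (0.76). Among the 6 members with at least 100 UMIs, which leaves out *Tnnc1*, *Myh6* and *Myh7*, the highest value was that of *Myl7* with *Myl4* (0.81) and the lowest that of *Tnnt2* with *Actc1* (0.40).

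Members found together were counted in single EHF cells, thinned to 3500 UMIs, which left 2739 of 3494 cells. Of these, 2165 had no member, 461 had 1, 77 had 2, 25 had 3, 6 had 4 and 5 had 5. Among cells with exactly 1 member, that member was *Myl7* in 55.5% (50.9 to 60.1), *Tnni1* in 17.8% (14.4 to 21.6), *Acta2* in 8.68%, *Actc1* in 7.16%, *Tnnc1* in 4.12%, *Tnnt2* in 3.47% and *Myl4* in 2.82%. In the 102 cells with 2 or 3 members, *Myl7* was in 68.6% (58.7 to 77.5), *Acta2* in 36.3%, *Tnnt2* in 33.3% (24.3 to 43.4), *Tnni1* in 31.4%, *Actc1* in 25.5%, *Myl4* in 23.5% (15.7 to 33.0) and *Tnnc1* in 5.88%. *Myl7* was thus the member most often found alone, whereas *Tnnt2* and *Myl4* were mostly found in company. The 11 cells with 4 or more members all had *Myl7*, 10 had *Tnnt2*, 8 each had *Myl4* and *Tnni1*, and 6 had *Acta2*. *Tnnc1* and *Actc1* were in 3 each, and 8 of the 11 cells were of the cardiac class. The members differ in how many cells hold them. *Myl7* was in 337 of the 2739 cells, *Tnnt2* in 60 and *Myl4* in 45. *Actc1* was in 62 cells and alone in 33, *Tnnc1* in 28 and alone in 19, whereas *Tnnt2* was alone in 16. The part of abundance in these shares was not tested, so they give no order of appearance.

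Within the cardiac class *Myl7* was again the member most often found alone. It was also the most abundant member there, so this gives no order of appearance either. Of the 94 cardiac cells deep enough, 23 had no member and 38 had 1. That member was *Myl7* in 30 of them (78.9%, 62.7 to 90.4), *Tnni1* in 6, and *Myl4* and *Tnnt2* in 1 each. Of 25 cells with 2 or 3 members, 23 had *Myl7*, 12 *Myl4* and 9 each *Tnnt2* and *Tnni1*. Of the 21 cardiac cells with *Myl4*, 18 also had *Myl7*, and of the 17 with *Tnnt2*, 15 had *Myl7*. *Myl7* was in 64.9% of all cells of the class, and in 12.3% over the whole library. There, of 60 cells with *Tnnt2*, 30 had *Myl7*, 18 had *Acta2* and 14 had *Myl4*, and of 83 with *Acta2*, 24 had *Myl7* and 18 *Tnnt2*. Outside the cardiac class, *Tnnt2* was found with *Myl7* in 15 of 43 cells and with *Acta2* in 15. Over all cells outside the class, *Myl7* was in 10.4% and *Acta2* in 2.95%.

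**Figure D5:**
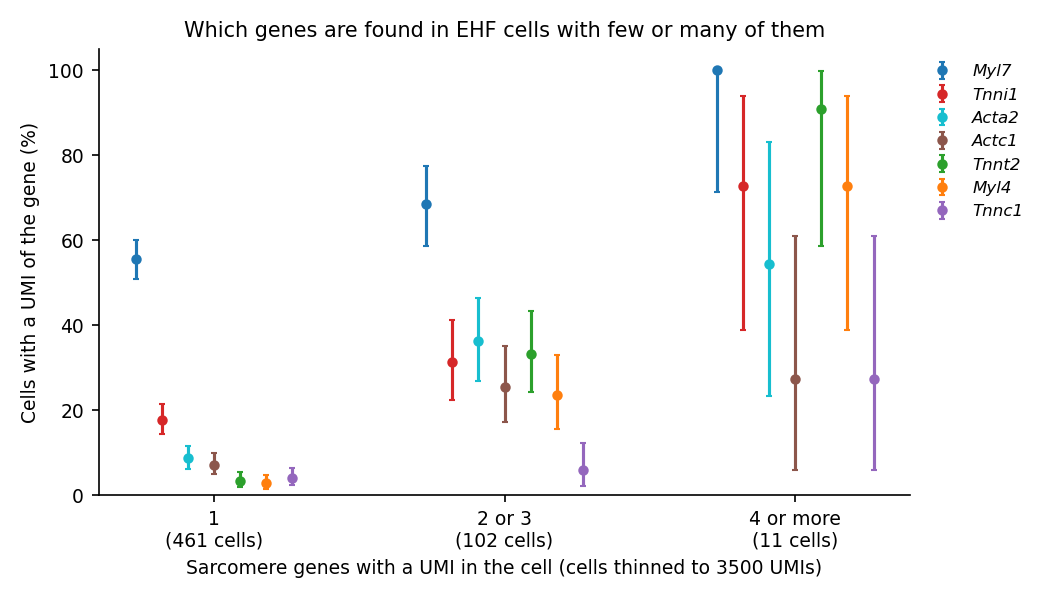
Share of EHF cells with a UMI of each member among cells with 1 member (461 cells), 2 or 3 (102) and 4 or more (11), after thinning to 3500 UMIs, with Clopper-Pearson 95% intervals. *Myl7* leads at every number, and *Tnnt2* and *Myl4* are scarce in cells with 1 member and frequent in the 11 cells with 4 or more. *Tnni1* is as frequent as *Myl4* in those 11 cells.

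Adult or maternal blood genes were measured as a sign of other cells, with *Hbb-bt*, *Hbb-bs*, *Hba-a1*, *Ptprc* and *Lyz2* as the list. MS-LS listed 1 of the 5, *Hba-a1* with 7 UMIs, and OB-EB listed 1, *Hbb-bs* with 3 UMIs. EHF listed 4, with *Hba-a1* highest at 129 UMIs (6.33 CPM), *Hbb-bs* at 70, *Hbb-bt* at 37 and *Lyz2* at 3, and *Ptprc* in none of the libraries. *Hba-a1* was a leading gene of the embryo's own erythroid-like cluster 21. The cardiac class held 1 UMI each of *Hba-a1* and *Hbb-bs* and none of *Hbb-bt* and *Lyz2*, and mesenchyme-like cluster 16 held 2 UMIs of *Hbb-bs* and none of the others.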

How the data were processed

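Whole embryos of 3 stages were measured with 3′ single-cell RNA sequencing, 1 library per stage. The authors aligned reads and counted UMIs with Cell Ranger 3.0.2 on GRCm38 with the reporter added, filtered barcodes, and deposited raw counts per gene and cell. The submitters' processing notes also name R 3.6.1 and Seurat 3. All deposited cells were used, and no cell had under 1001 UMIs. Counts were summed and scaled to CPM, with exact Poisson and Clopper-Pearson 95% intervals. No test was made, since each stage has 1 library. A gene with 0 UMIs was set against 3 UMIs over the group, except *Tnnt2* in OB-EB cluster 4, given the upper end of its exact interval.

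Clusters were found with Seurat 5.3.0 under R 4.3.3 (scale factor 10000, 2000 variable genes, 50 components, resolution 4.5 for EHF and 2 otherwise), without members and muscle genes. A marker was detected with a UMI in at least 20% of cells and at least 2 times the level elsewhere. A named cluster took the type whose markers had the highest mean log2 ratio over the other cells, with 10 CPM added to both sides. The 10 leading genes have the largest of these ratios among the genes seen in 25% of cells or more. A cluster whose leading genes held more markers of another type stayed unnamed.

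No doublets were removed. The automatic threshold of Scrublet (scanpy 1.11.5) marked 6 MS-LS, 0 OB-EB and 13 EHF cells, so the 182, 200 and 175 cells with the highest scores were left out as an alternative. Others were thinning to 1500 or 3500 UMIs, cells under a mitochondrial limit or with at least 2000 UMIs, mean CPM over cells, other resolutions, Leiden clustering (leidenalg 0.10.2), muscle genes allowed, the study's cell names, and other UMI minimums.

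Named genes are the members, the muscle, upstream and blood lists, the 5 genes most like *Myl7*, *Tnnt2* and *Acta2*, the 3 most like *Actc1* (a further 1 is not reported here), and the 5 with the largest cardiac ratio. Leading genes of clusters were named after their values were seen. Members and lists were chosen with earlier results of these data known. Gene positions are from GENCODE. Other tools were Python 3.11.15 with pandas 2.3.3, numpy 2.4.6, matplotlib 3.10.9 and scipy 1.17.1. Only the ratios between groups and the counts past the fold were tested on simulated data, which were Poisson counts.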

Additional observations from a re-analysis of the deposited data

How the results depend on the processing

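Of 293 values recomputed under an alternative, 252 stayed within the interval of the value as reported, or within 1.5 times for counts of genes, and 41 moved. These 41 follow, and the cause was not tested except where named.

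Shares of cells with a UMI depend on the depth each cell is thinned to, by construction. At 1500 UMIs the *Myl7* share was 8.57% in MS-LS, 17.8% in OB-EB and 6.88% in EHF, and at 3500 UMIs 14.0%, 23.2% and 12.3%, with OB-EB highest each time. At 3500 UMIs the MS-LS share of *Tnnc1* was 0.828%, and the OB-EB shares were 0.635% for *Myl4*, 0.363% for *Tnnt2*, 0.907% for *Tnni1* and 0.635% for *Tnnc1*. The EHF shares were 1.64% for *Myl4*, 2.19% for *Tnnt2*, 4.45% for *Tnni1*, 2.26% for *Actc1*, 3.03% for *Acta2* and 0% for *Myh7*, and *Tnni1* had 1.98% at 1500 UMIs.

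The mean of each cell's own CPM gave 204 for *Myl7* and 212 for the summed members in OB-EB, and 15.2 for *Tnni1* in EHF. With Leiden clustering the cardiac class had *Myl7* at 527 CPM (log2 ratio 3.41), *Tnnc1* at 7.62 (0.68), *Acta2* at 9.15 (−0.56) and a *Myl4* ratio of 4.02. With muscle genes allowed, *Tnnt2* had a ratio of 4.14. The class held between 95 and 103 cells in every alternative.

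At resolution 1, *Myl7* in MS-LS nascent mesoderm-like cells was at 371 CPM, over 609 cells. In OB-EB it was at 477 CPM with unnamed clusters led by *Mesp1* counted in, an alternative chosen after seeing the data. No OB-EB cluster took that name at resolutions 1 and 4.5, which gave no value.

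With minimums of 50 and 100 UMIs, fewer genes were tested. OB-EB over MS-LS had 579 of 11295 genes (5.13%) and 405 of 9706 (4.17%) higher, with 1 of 3 and 1 of 1 members tested. At 100 it had 318 lower (3.28%), with 0 members. EHF over OB-EB had 1599 of 10490 higher (15.2%) and 582 lower (5.55%) at 100. The cardiac class had 459 of 11171 (4.11%) and 259 of 9449 (2.74%) higher. The members past the fold at 100 UMIs between OB-EB and EHF were still 6 higher and 1 lower of 7 tested.

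No paired analysis was possible because each stage is 1 library, and the replicate numbers name a pair of EHF tables with the same counts. The depth limits *Myh6*, *Myh7* and the early levels of *Tnnt2* and *Acta2*, which rest on 11 UMIs or fewer. Free RNA, pooled embryos, and copies of the actin and heavy chain genes limit the rest.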
